A study of Mus musculus with 24 samples.

Results

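Inhibitory-specific open chromatin was defined here as the peaks of accessible DNA that were read far more often in inhibitory nuclei of the mouse amygdala than in excitatory or non-neuronal nuclei. Counts of the 266399 peaks on chromosomes 1 to 19 were summed over all inhibitory, all excitatory and all non-neuronal cell types, and each sum was divided by the total of its class and expressed per 1000000 counts of the class (CPM). A peak was a member when its inhibitory level was at least 2 CPM and at least 4 times both other levels. The rule kept 1228 peaks, 0.461% of those on chromosomes 1 to 19 and part of 271433 in all. The same rule turned towards excitatory nuclei kept 3723 peaks, and towards non-neuronal nuclei 3896.

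The study measured nuclear RNA and chromatin accessibility in the amygdala of adult males of 2 inbred mouse strains, named BL6 and DBA in the labels, at 10 to 16 weeks of age. Each library came from the pooled tissue of about 2 animals, and each strain had 2 RNA and 2 ATAC libraries; no treatment is named. Nuclei for RNA were sorted with the neuronal antibody NeuN to 75% neurons and 25% other cells, whereas the ATAC sort used a stain for DNA and no neuronal antibody. The deposited tables number the libraries of each strain 2 and 3, and these numbers are used below. The p-values of the strain tests below measure the spread between such pools, 2 per strain and assay. Comparisons between types or classes had the library as a block, so their p-values measure the spread left after library differences are removed. Inhibitory nuclei gave 646 to 732 CPM of RNA from 9 GABAergic markers, summed, in the RNA libraries, against 46.0 to 66.2 CPM in excitatory and 268 to 329 CPM in non-neuronal nuclei, and 8 of the 9 were highest in the inhibitory class in every library. The 7 glutamatergic markers, summed, stood at 16.9 to 22.1 CPM in inhibitory and 234 to 305 CPM in excitatory nuclei.

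Inhibitory neurons of the forebrain make GABA from glutamate with the enzymes encoded by Gad1 and Gad2 and load it into vesicles with the transporter encoded by Slc32a1. Homeobox factors of the Dlx family set up this fate in the embryonic ganglionic eminences, from which the inhibitory neurons of the amygdala arise. In the central and intercalated parts of the amygdala they are projection neurons related to those of the striatum, and in the basolateral part they are interneurons related to those of the cortex. Distal enhancers, rather than promoters, are known to carry most of the differences in accessibility between neuron types.

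Few members held the start of a gene, so the promoter sequences that could be shown are the exceptions, and they are printed for the genes on which inhibitory identity rests. Of the 1175 members on chromosomes covered by the table of RefSeq start sites, 9 (0.766%) held a start, against 5.05% of all peaks on these chromosomes and 12.8% of peaks with an inhibitory level of 2 CPM or more. Members with starts were found at Slc32a1 and at Dlx6os1, a long noncoding RNA that overlaps Dlx6, with separate members at each of 2 Dlx6os1 starts. Windows of the 250 bases before a start are given 5′ to 3′ on the strand of the gene, from RefSeq on GRCm38.p6 (mm10). Capitals mark the homeodomain core TAATTA, the E-box CANNTG and the TATA box TATAAA, each searched on both strands. The Slc32a1 window, on the plus strand, is chr2:158610508-158610757 and lies wholly inside a member. The Dlx6os1 windows, on the minus strand, are chr6:6869534-6869783, wholly inside a member, and chr6:6861684-6861933, partly inside one. The plus-strand windows of Gad1 (chr2:70561879-70562128) and Gad2 (chr2:22622077-22622326) are shown because their peaks were strongly inhibitory but did not meet the rule.
Slc32a1: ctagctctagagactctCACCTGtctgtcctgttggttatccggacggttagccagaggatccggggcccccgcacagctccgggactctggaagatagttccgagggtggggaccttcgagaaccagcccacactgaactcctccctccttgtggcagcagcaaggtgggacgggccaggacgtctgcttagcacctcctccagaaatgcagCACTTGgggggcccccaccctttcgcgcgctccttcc
Dlx6os1 upstream start: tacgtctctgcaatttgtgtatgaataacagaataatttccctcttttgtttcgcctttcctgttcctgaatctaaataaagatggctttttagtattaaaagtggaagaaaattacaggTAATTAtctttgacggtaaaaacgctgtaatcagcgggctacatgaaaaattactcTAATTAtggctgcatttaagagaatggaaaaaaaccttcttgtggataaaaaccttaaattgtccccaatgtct
Dlx6os1 downstream start: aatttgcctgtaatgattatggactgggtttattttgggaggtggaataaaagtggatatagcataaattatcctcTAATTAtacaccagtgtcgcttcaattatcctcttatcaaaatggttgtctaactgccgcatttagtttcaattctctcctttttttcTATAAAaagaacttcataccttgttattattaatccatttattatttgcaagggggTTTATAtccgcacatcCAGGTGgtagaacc
Gad1: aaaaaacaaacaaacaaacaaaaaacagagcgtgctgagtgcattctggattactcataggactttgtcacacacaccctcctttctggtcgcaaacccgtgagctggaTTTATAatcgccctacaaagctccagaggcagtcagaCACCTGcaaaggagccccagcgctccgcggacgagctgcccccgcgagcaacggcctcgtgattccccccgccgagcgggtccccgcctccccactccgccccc
Gad2: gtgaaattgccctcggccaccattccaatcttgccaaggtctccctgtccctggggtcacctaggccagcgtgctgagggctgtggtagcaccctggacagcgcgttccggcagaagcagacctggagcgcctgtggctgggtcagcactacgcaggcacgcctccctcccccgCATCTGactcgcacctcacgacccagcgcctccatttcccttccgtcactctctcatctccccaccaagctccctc

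The Dlx6os1 window at the upstream start held 2 matches to TAATTA and the downstream one held 1, a sequence found in 4.84% of 32851 promoter windows of this length. The windows of Slc32a1, Gad1 and Gad2 held none. They were rich in G and C, at 62.4%, 58.0% and 64.0% of their bases, and the Dlx6os1 windows were not, at 33.2% and 34.0%, against a median of 52.4% over all windows. CANNTG had 2 matches at Slc32a1 and 1 each at Gad1, Gad2 and the downstream Dlx6os1 start, and was found in 66.2% of all windows. TATAAA had 2 matches at the downstream Dlx6os1 start and 1 at Gad1, and was found in 12.4%. These matches describe the letters only. Sequences of the other members were not used here.

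The members were chosen by their ATAC levels in the 3 classes, and these levels are given as a description, without a test. The median inhibitory level was 3.55 CPM, against 0.596 CPM in excitatory and 0.489 CPM in non-neuronal nuclei. The classes were covered very unevenly, with 127268399 counts from 8490 inhibitory nuclei, 172869834 from 10172 excitatory nuclei and 6140122 from 448 non-neuronal nuclei, so a non-neuronal level of 0.5 CPM rests on 3.07 counts. The highest member was the Slc32a1 start, at 36.3, 36.6, 38.0 and 37.3 CPM in inhibitory nuclei of BL6 libraries 2 and 3 and DBA libraries 2 and 3. The same peak stood at 2.91, 3.36, 2.71 and 3.12 CPM in excitatory nuclei and at 4.91, 3.25, 10.9 and 5.62 CPM in non-neuronal nuclei. In each library the inhibitory level lay above both others, and the non-neuronal level varied most.

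The member over one end of Dlx5 (chr6:6881129-6882247), a homeobox factor of developing and mature inhibitory neurons, came next, at 32.9, 32.3, 32.5 and 32.3 CPM in the inhibitory nuclei of the 4 libraries and at 3.55 to 5.05 CPM in excitatory nuclei. The Dlx6os1 start beside Dlx6 (chr6:6869228-6870340) stood at 22.8 to 24.5 CPM in inhibitory and 0.902 to 1.98 CPM in excitatory nuclei, a ratio of 15.2 over the summed counts. The weaker member at the downstream Dlx6os1 start (chr6:6861208-6861792) was read at 6.79 to 9.02 CPM against 0.950 to 1.42 CPM. The spread between libraries was small beside the gap between classes at each of these 3 peaks.

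The other members of highest level lay at genes with less direct ties to GABA. A peak inside Nrxn3 (chr12:88726005-88727675), which encodes a presynaptic adhesion protein, lay 3.30 kb from the start of the gene and stood at 28.0, 28.1, 31.1 and 30.1 CPM in inhibitory nuclei. One outside genes, 15.3 kb from the start of Zcchc14 (chr8:121668101-121669628), stood at 26.6 to 31.4 CPM but also had the highest excitatory level of the 10, at 6.53 to 7.04 CPM. Tmod1, an actin-capping protein, held a member (chr4:46052999-46053938) at 20.5 to 25.3 CPM, and Pxylp1 one (chr9:96865382-96866353) at 21.5 to 23.8 CPM. A peak 380 kb from the start of Dynlrb2 (chr8:116123656-116124655) was read at 16.5 and 15.9 CPM in BL6 and at 23.0 and 19.7 CPM in DBA. Oprm1, the mu opioid receptor, which is abundant in the intercalated cell masses, held one (chr10:6870915-6872056) at 16.2 to 19.6 CPM. Synpr, a synaptic vesicle protein, held one (chr14:13388260-13390241) at 16.7 to 19.5 CPM. In all 10 the 4 inhibitory values lay above the 4 excitatory values, as the rule required of their sums. Exon and intron positions were not used here, so a peak within the bounds of a gene is called inside it.

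**Figure D1:**
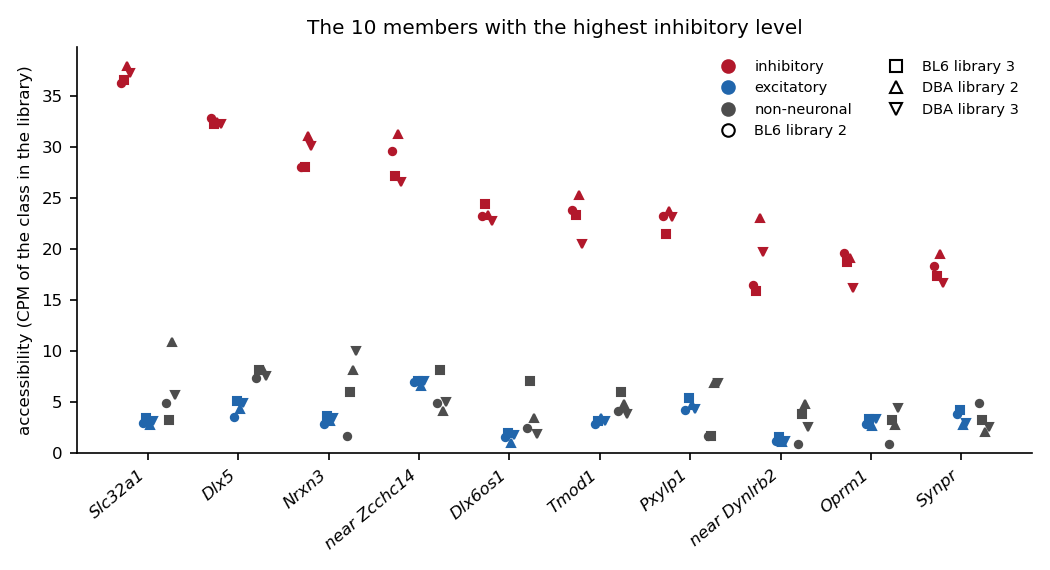
Accessibility in CPM (vertical axis) of the 10 members with the highest inhibitory level, for inhibitory, excitatory and non-neuronal nuclei of each ATAC library. Each point is 1 library; the inhibitory values run from 15.9 CPM beside Dynlrb2 to 38.0 CPM at Slc32a1, and those of the other classes lie below them for each peak.

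The non-neuronal condition kept several peaks at the best known inhibitory genes outside. The peak over the start of Gad1 (chr2:70561956-70562341) had 16.6 CPM in inhibitory and 1.53 CPM in excitatory nuclei, a ratio of 10.9, but 8.47 CPM in non-neuronal nuclei. Over the start of Gad2 (chr2:22621752-22622793) the levels were 24.9, 3.15 and 8.79 CPM. The start of Dlx1 (chr2:71528466-71529852) had 33.3, 4.55 and 19.1 CPM, and those of Dlx2 and Sp9 had 7.17 and 7.13 times their excitatory level. At Dlx6 a peak just before the gene (chr6:6862607-6863035), with an inhibitory to non-neuronal ratio of 3.98, lay barely outside. The members nearest to the 4-fold threshold lay near Tctn1 (3.87 CPM inhibitory, 0.966 CPM excitatory and 0.489 CPM non-neuronal), Capn8 (9.88, 2.47 and 2.28 CPM) and Lrrtm1 (4.40, 1.10 and 0.651 CPM). The nearest peaks outside it lay near Hhat (8.28, 2.07 and 1.79 CPM), Csgalnact1 (4.90, 1.23 and 0.977 CPM) and Adgra3 (13.8, 3.46 and 3.26 CPM).

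Applied to each ATAC library alone, the whole rule was met by 767, 692, 863 and 627 members in BL6 libraries 2 and 3 and DBA libraries 2 and 3. Inhibitory nuclei lay at least 4-fold over excitatory nuclei in 1065, 1008, 1177 and 964 of them, and above in at least 1227 in each library. By either of the first measures DBA library 2 had the most and DBA library 3 the fewest. When the members were chosen again in the BL6 libraries alone, 1149 peaks met the rule, and 989 of them (86.1%) were also at least 4-fold over the excitatory level in DBA, which had no part in that choice. Of 1460 peaks chosen in DBA alone, 1030 (70.5%) were at least 4-fold over it in BL6. Both shares leave out the non-neuronal condition. The share over all peaks was not computed, so they are given as a description. The whole rule was met in both strains by 595 peaks, 51.8% of the BL6 choice and 40.8% of the DBA choice.

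The members were not spread evenly over inhibitory neurons. The authors divided the inhibitory nuclei into 8 types, named by marker genes, and 749 members (61.0%) had their highest level in the type Inh-Tshz1. Tshz1, a zinc finger factor, is known as a marker of the intercalated cells, clusters of inhibitory neurons that lie between the basolateral and central amygdala. Among all 94111 peaks with an inhibitory level of 2 CPM or more, 15.7% were highest in that type. Inh-Drd2 was highest at 152 members, Inh-Sst at 100, Inh-Zfhx3 at 82, Inh-Lamp5 at 60, Inh-Htr3a at 38, Inh-Nxph2 at 37 and Inh-Lypd6b at 10. The rule itself favours abundant types: Inh-Tshz1 gave 29.2% of the inhibitory counts, Inh-Nxph2 24.0% and Inh-Zfhx3 21.8%, but Inh-Drd2 4.82% and Inh-Lypd6b 2.51%. Had each type been weighted equally, 1023 peaks would have met the thresholds, of which 454 (44.4%) are members, 37.0% of all members, and 13.7% were highest in Inh-Tshz1. Without Inh-Tshz1 in the sum, 886 peaks would have met them, of which 408 (46.0%) are members, 33.2% of all members. With Inh-Tshz1 alone as the inhibitory class, 5347 peaks would have met them, including 1004 members (81.8%).

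The members differed in how many inhibitory types lay over the excitatory class. At 63 members (5.13%) each of the 8 types was at least 2-fold over it, at 104 members 7 types were, and at 13 members a single type was. The most frequent number was 4 types, at 307 members. The shares over all peaks were not computed, so these counts are not read as rare or common. Inh-Lypd6b, with 3198421 ATAC counts against 37129327 in Inh-Tshz1, stood at a median of 0.938 CPM at the members. The part of depth in these counts was not tested. The share of all ATAC counts that fell in members was 1.03% in Inh-Tshz1, with 1.00%, 0.963%, 1.11% and 1.00% in the 4 libraries. It was 0.537% in Inh-Drd2, 0.470% in Inh-Zfhx3, 0.341% in Inh-Nxph2, 0.333% in Inh-Sst, 0.294% in Inh-Lamp5, 0.266% in Inh-Htr3a and 0.203% in Inh-Lypd6b. The libraries of Inh-Tshz1 and of Inh-Drd2, at 0.520% to 0.568%, did not overlap with one another or with those of the other 6 types. The values of Inh-Nxph2 and Inh-Sst overlapped, at 0.330% to 0.349% and 0.320% to 0.349%. The excitatory types ran from 0.0813% in Exc-Tafa1 to 0.153% in Exc-Tfap2c, a gap that the rule itself required of the class sums. Of the non-neuronal types NN-Endo-VLMC, with 9 nuclei, had 0.233%, above Inh-Lypd6b, and ranged from 0.0672% to 0.362% over the libraries, while the others had at most 0.119%.

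Differences among the inhibitory types were not a criterion of the rule, but they rest on the same inhibitory counts that it summed, so the calls below describe the members and are no independent support. Each type was compared against the mean log level of the other 7 with edgeR's quasi-likelihood test. The filter on low counts passed 1085 members, and the other 143 were not tested. Since a peak could pass through the one type in which it is high, the counts describe these 1085 and support nothing about the rest. With the types weighted equally, as given above, 13.7% of the peaks and not 61.0% were highest in Inh-Tshz1. Inh-Tshz1 was higher at 863 of them (79.5%) and lower at 116, while 34.8% of all peaks tested were higher and 24.4% lower. The median difference of the tested members was 2.60 on the log2 scale, against 0.06 over all peaks. Inh-Zfhx3 was higher at 568 (52.4%, all peaks 26.7%) and lower at 138 (12.7%, all peaks 14.5%). Inh-Drd2 was higher at 495 (45.6%, all peaks 25.4%) and lower at 143 (13.2%, all peaks 16%). Of the 495 members higher in Inh-Drd2, 438 were also higher in Inh-Tshz1, which is 88.5% of the first and 50.8% of the second. Among all tested members 79.5% were higher in Inh-Tshz1 and 45.6% in Inh-Drd2. The overlap was not computed over all peaks, so it is not read as large or small. Inh-Nxph2 was higher at 321 (29.6%, all peaks 21.4%) and lower at 123 (11.3%, all peaks 10.2%).

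In the remaining 4 types more tested members were lower than higher. Inh-Sst was higher at 200 and lower at 338 (all peaks 20.2% and 14.6%), and Inh-Lamp5 at 135 and 255 (all peaks 16.6% and 13.6%). Inh-Htr3a was higher at 116 and lower at 214 (all peaks 16.4% and 11.7%), and Inh-Lypd6b at 34 and 128 (all peaks 5.97% and 5.73%). These counts stand beside very different depths, such as 670775 to 957949 counts a library in Inh-Lypd6b and 6613068 to 11579367 in Inh-Tshz1. Markers of other cell types also varied in the RNA libraries. The 7 glutamatergic markers, summed, stood at 78.9 to 113 CPM in Inh-Lypd6b and at no more than 21.5 CPM in any library of the other inhibitory types. Astrocyte markers, summed, stood at 23.9 to 35.9 CPM in Inh-Tshz1 and at no more than 19.9 CPM in the other inhibitory types. Their part in the calls was not tested. A single type was called higher at 134 members, and that type was Inh-Tshz1 at 115. Some type other than Inh-Tshz1 was called higher, without Inh-Tshz1, at 219.

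**Figure D2:**
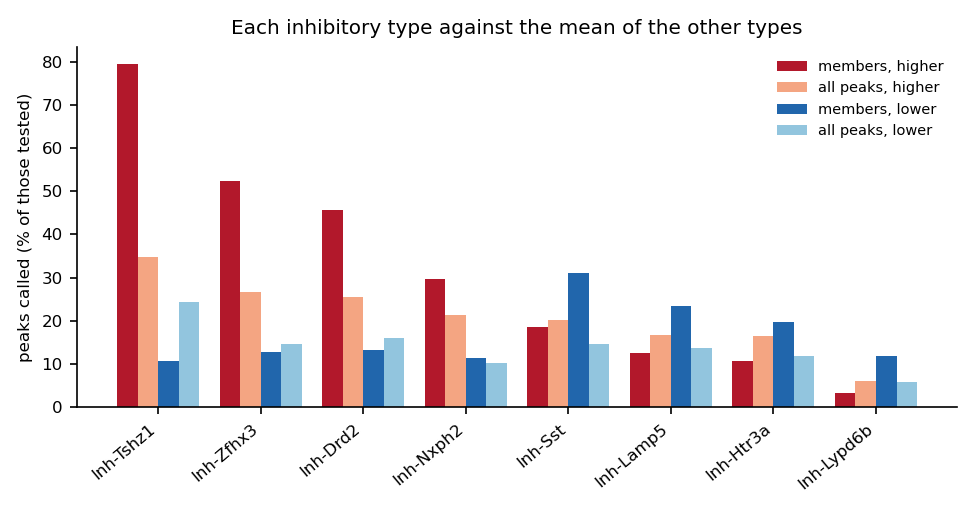
Share of tested peaks called higher or lower (vertical axis, percent) in each of 8 inhibitory types against the mean of the other types, for the 1085 members tested and for all 91370 peaks tested. The bar of members higher in Inh-Tshz1 reaches 79.5% against 34.8% of all peaks, and from Inh-Sst to Inh-Lypd6b the members called lower outnumber those called higher.

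The members with the smallest p in each type differed in how far their signal was shared with other types. Their levels come from the counts that the rule summed and are given without a test. In Inh-Tshz1 a peak 173 kb from the end of Gpam (chr19:54893233-54894302) stood at 40.3, 42.2, 45.9 and 39.3 CPM, against a mean of 3.89 ± 0.331 CPM (SD, n = 4) over the other types. Its fitted difference was 4.38 ± 0.12 (SE, log2). A peak 56.6 kb from the start of Nmnat3 (chr9:98229617-98230809), which encodes an NAD-synthesizing enzyme, stood at 40.9 ± 1.42 CPM against 2.70 ± 0.480 CPM (SD, n = 4). The mean of the other types did not exceed 4.32 CPM at the first or 3.21 CPM at the second in any library. In Inh-Drd2 the named members lay inside Ldah (chr12:8216472-8217060), a lipid droplet hydrolase, and inside Majin (chr19:6218497-6219210), a meiotic telomere protein. The first stood at 21.5, 29.8, 31.0 and 18.2 CPM against 1.74 to 2.24 CPM, and the second at 23.2 to 41.4 CPM against 5.88 to 6.89 CPM. The Majin peak also stood at 22.4 CPM in Inh-Tshz1 and 15.7 CPM in Inh-Zfhx3.

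In Inh-Sst, named for somatostatin, a peak 38.5 kb from Rtp4 (chr16:23652710-23654107) stood at 50.3, 49.7, 52.3 and 53.2 CPM against 3.58 to 4.18 CPM, a fitted difference of 4.23 ± 0.13 (SE, log2). The second, 380 kb from Casp12 (chr9:5752678-5753385), stood at 29.2 ± 2.41 CPM against 1.07 ± 0.554 CPM (SD, n = 4). In Inh-Lamp5 the peaks near Plppr4 (chr3:117255292-117255784), a phospholipid phosphatase-related membrane protein of neurons, and near Nyap2 (chr1:80928894-80929668), an adaptor of neuronal PI3K signalling, reached 37.2 ± 10.3 and 34.8 ± 6.57 CPM (SD, n = 4). Both were next highest in Inh-Htr3a, at 12.8 and 14.1 CPM. In Inh-Htr3a a peak inside Metap1d (chr2:71517009-71517797), beside Dlx1, stood at 59.1, 56.3, 43.0 and 39.3 CPM against 5.81 to 7.57 CPM, and one near Rxra (chr2:27637330-27637711), a retinoid receptor, at 17.2 to 26.6 CPM. These 6 peaks lay above the mean of the other types in each library.

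In Inh-Nxph2 the peaks near Dusp10 (chr1:184219638-184220390) and near Slc22a22 (chr15:57566892-57567523) were lower in level, at 11.2 ± 0.675 and 8.68 ± 2.31 CPM (SD, n = 4), against means of 0.900 and 0.893 CPM. In Inh-Zfhx3 the peak near Ano3 (chr2:110976310-110977246), a membrane protein of the anoctamin family, stood at 18.8 ± 2.38 CPM (SD, n = 4). It stood higher still in Inh-Tshz1, at 26.2 CPM. In Inh-Lypd6b the peak inside Alg9 (chr9:50798244-50798693) stood at 16.4, 7.30, 10.4 and 16.1 CPM against 3.04 to 4.96 CPM, and Inh-Drd2 had a mean of 9.09 CPM there. The one near Ptpn20 (chr14:33683629-33684173) stood at 11.9, 14.6, 19.8 and 1.34 CPM against 4.66 to 5.64 CPM, so its DBA library 3 value lay below their mean, and Inh-Sst stood higher, at 16.4 CPM, although the fitted difference was 1.95 ± 0.32 (SE, log2).

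**Figure D3:**
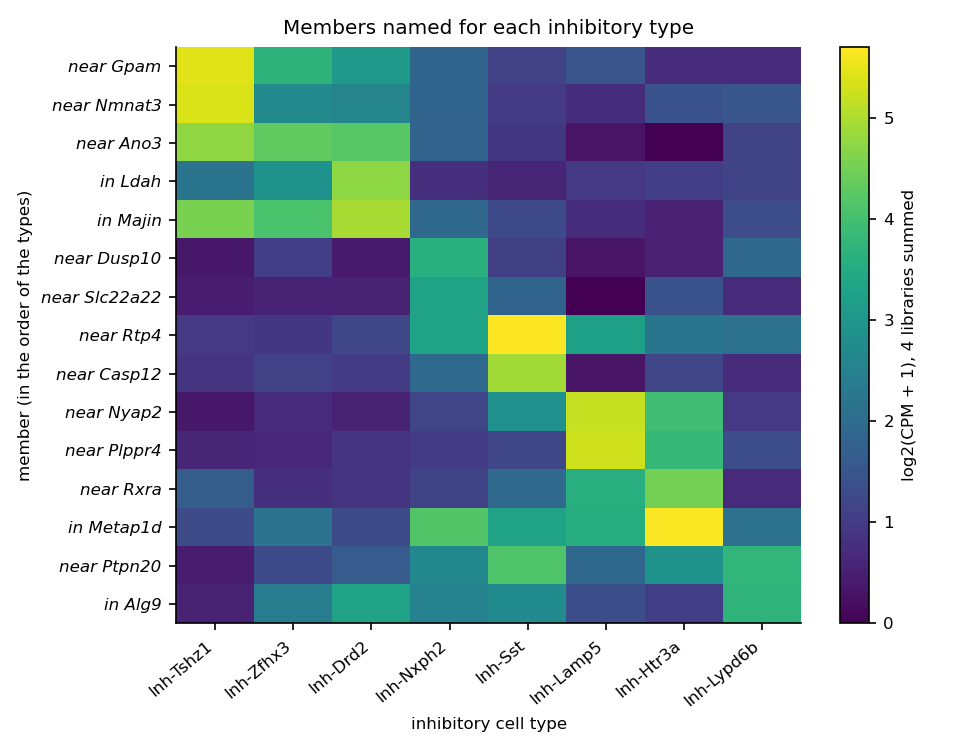
Level of the members named for the inhibitory types (rows, 2 per type and 1 for Inh-Zfhx3) in each type (columns), as log2(CPM + 1) of the counts of the 4 libraries together. Peaks of Inh-Tshz1, Inh-Zfhx3 and Inh-Drd2 share signal among these 3 types, those of Inh-Lamp5 are next highest in Inh-Htr3a, and the peaks near Gpam and Rtp4 are among the brightest.

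The members lay apart from genes more often than other peaks did. A gene overlapped 46.3% of the members and 64.1% of all peaks on these chromosomes, and 7.08% against 15.0% lay within 2 kb of the end of a gene. The median distance to a gene end was 32.4 kb for members and 18.6 kb for all peaks, while the excitatory-specific peaks resembled the members, with 0.753% holding a start and a median of 33.7 kb. Non-neuronal-specific peaks held a start more often, at 7.33%, with a median distance of 11.8 kb. The median width of a member was 562 bp, against 475 bp over all peaks and 812 bp over peaks with an inhibitory level of 2 CPM or more.

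Most members stood alone, but a few genes of inhibitory identity gathered several. Runs in which neighbours lay within 50 kb held 139 members (11.3%), and 6 runs held 3 or more. The longest spanned Dlx6os1, Dlx6 and Dlx5 (chr6:6843977-6882247) with 9 members. The next lay within Gad2 (chr2:22623601-22680316) with 6, although the peak over its start was no member. Runs of 3 were found near Apob (chr12:7512351-7522087), near Wdr5 and Rxra (chr2:27595607-27682124), beside Dlx1 (chr2:71517009-71538258) and within Foxp2 (chr6:15369174-15412125), a forkhead factor of striatal and intercalated neurons.

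RNA was measured in other libraries than those that chose the members, so the rule did not use it. How cell types were called in either assay is not given, so whether the type labels tie the assays is not known. A gene was taken to have a member when one overlapped the gene or the 2 kb beyond either end. Of 1228 members 611 (49.8%) had such a gene, which gave 454 genes with an RNA row, of which 391 passed the filter. In inhibitory against excitatory nuclei, with the library as a block, 178 of these were higher (45.5%) and 71 lower (18.2%), beside 16.1% and 17.4% of all 20906 genes tested. Their median difference was 0.16 on the log2 scale, against 0.01 for all genes. Of 953 genes tested at excitatory-specific peaks, 177 were higher (18.6%) and 429 lower (45.0%), and of 1511 at non-neuronal-specific peaks 381 were higher and 395 lower. Genes with 1 member were higher in 140 of 328 cases, those with 2 in 29 of 49, and those with 3 or more in 9 of 14. Gene length moved with these counts, with medians of 128 kb, 352 kb and 957 kb, and its part was not tested. Only 31 tested genes had a member within 2 kb of an end, of which 12 were higher and 5 lower. Without the library block the counts over the 391 genes fell to 114 and 36.

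The genes of GABA synthesis and release are given first. Gad2, with 6 members, stood at 239, 220, 226 and 231 CPM in inhibitory nuclei of BL6 libraries 2 and 3 and DBA libraries 2 and 3, and at 9.95, 5.30, 3.001 and 5.17 CPM in excitatory nuclei. The difference was 5.16 ± 0.26 (SE, log2, edgeR adjusted p = 0.000543), and the classes did not overlap. Gad1, with 1 member, stood at 159 to 186 CPM against 1.06 to 5.82 CPM, and Slc32a1, with the highest member, at 51.8 to 72.2 CPM against 1.84 to 6.82 CPM (3.94 ± 0.27, SE, log2, edgeR adjusted p = 0.000965). All 7 genes of GABA synthesis, transport and breakdown on the list used were higher in inhibitory nuclei, but only these 3 had a member, 8 in all. No gene of this list held an excitatory-specific peak, and 1 held a non-neuronal-specific peak. Over all 20906 genes tested in RNA, 1.87% had a member, 4.56% an excitatory-specific peak and 7.23% a non-neuronal-specific peak. These shares stand beside the counts of each list below.

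Of 12 forebrain homeobox and zinc finger factors of the GABAergic lineage, 11 were tested and 10 were higher, and only Dlx5 and Dlx6 had a member that overlapped the gene or the 2 kb beyond its ends. The run of 3 members beside Dlx1 lay outside that window. No gene of this list held an excitatory-specific or non-neuronal-specific peak. With shares of 4.56% and 7.23% over all genes tested, a list of 12 is too short to read anything from this. Dlx5 stood at 7.15 to 8.81 CPM in inhibitory and 0.0968 to 0.386 CPM in excitatory nuclei (4.86 ± 0.23, SE, log2, edgeR adjusted p = 7.68e-09). Dlx6 stood at 9.89 to 12.2 CPM against 0.279 to 1.04 CPM. The noncoding Dlx6os1, which held 6 members, was far more abundant, at 174 to 194 CPM against 1.49 to 3.32 CPM, and had the largest difference of the genes with 3 or more members, 6.11 ± 0.15 (SE, log2, edgeR adjusted p = 7.72e-07). Dlx6os1 overlaps Dlx6, and the sources used here do not say whether reads were counted by strand.

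**Figure D4:**
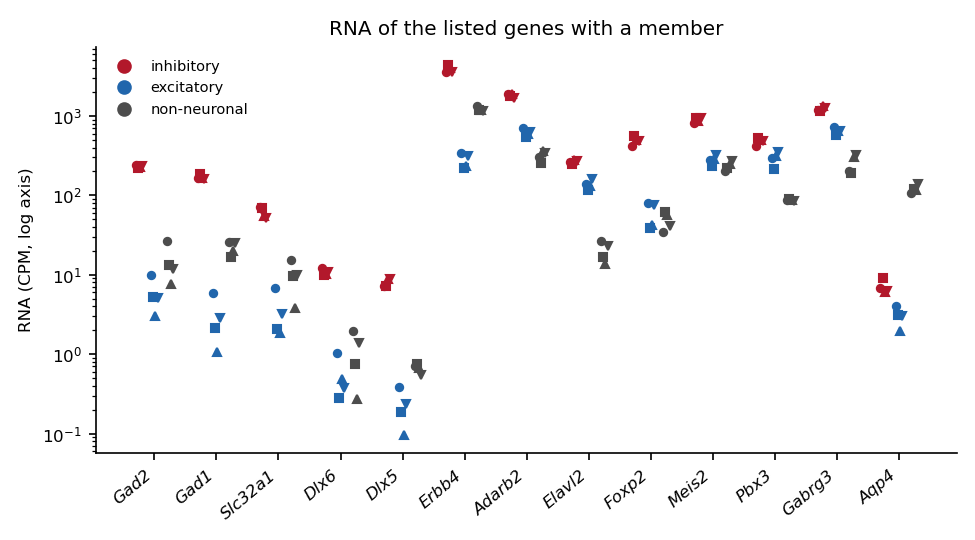
RNA level (vertical axis, CPM on a log scale) of the listed genes with a member, in inhibitory, excitatory and non-neuronal nuclei, 1 point per RNA library. The inhibitory points lie above the excitatory ones at each gene drawn, and at Aqp4 both lie far below the non-neuronal points.

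Interneuron genes were represented by 3 of 20 on the list. Erbb4, the neuregulin receptor of interneurons, had 3 members and stood at 3542 to 4329 CPM against 222 to 341 CPM in excitatory nuclei (3.76 ± 0.22, SE, log2, edgeR adjusted p = 0.00111). Adarb2, an RNA-editing family member that marks interneurons of the caudal ganglionic eminence, had 3 and stood at 1707 to 1887 CPM against 546 to 712 CPM. Elavl2, a neuronal RNA-binding protein, had 1 and stood at 245 to 280 CPM against 116 to 159 CPM. On that list 16 genes were higher and 2 lower, 3 held excitatory-specific peaks and 4 held non-neuronal-specific peaks.

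Among 24 factors and markers of striatal and central amygdala projection neurons, 3 had a member. Foxp2 had 5 and stood at 424, 562, 498 and 491 CPM against 80.3, 39.4, 42.9 and 75.5 CPM (3.01 ± 0.33, SE, log2, edgeR adjusted p = 0.00845). Meis2, a homeobox factor of the lateral ganglionic eminence, had 2 and stood at 818 to 953 CPM against 233 to 326 CPM. Pbx3, a cofactor of homeodomain proteins, had 1, and its 420 to 523 CPM against 213 to 357 CPM missed the threshold (0.68 ± 0.17, SE, log2, edgeR adjusted p = 0.0533), although it passed without the block (adjusted p = 0.0321), without BL6 library 3 (adjusted p = 1.5e-05) and with DESeq2 (adjusted p = 1.21e-06). Of that list 16 genes were higher and 2 lower, 6 held excitatory-specific peaks (7 in all) and 8 held non-neuronal-specific peaks. Gabrg3, a GABA-A receptor subunit, was the only one of 14 with a member; it had 2 and was higher (0.88 ± 0.05, SE, log2, edgeR adjusted p = 1.09e-07), while 3 subunits in all were higher and 5 lower. No member lay within 2 kb of the 14 neuropeptide genes on the list, such as Sst, Npy and Penk, of which 10 were higher and 1 lower in inhibitory nuclei.

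Genes of other cell types seldom had a member, but so did genes in general: 391 of the 20906 genes tested in RNA had one (1.87%), too few to read anything from its absence on a short list. None of 20 excitatory markers had one, and 3 held excitatory-specific peaks; 2 were higher and 17 lower. Of 10 astrocyte markers Aqp4, a water channel, had 1 member, and 1 marker was higher and 1 lower. Aqp4 stood at 6.09 to 9.21 CPM in inhibitory, 1.94 to 4.09 CPM in excitatory and 107 to 137 CPM in non-neuronal nuclei. No member was assigned to the oligodendrocyte, microglia or vascular markers. Of 12 oligodendrocyte genes tested edgeR called 1 lower and none higher, where 2 had an unadjusted p under 0.05 and DESeq2 called 1 each way. Of 9 microglia genes 1 was higher and 1 lower, and of 7 vascular genes edgeR and DESeq2 called none, where 2 had an unadjusted p under 0.05.

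Among the 10 genes with most members, 3 did not pass the test between the classes. Nrxn3, with 6 members, was higher at 6823 to 7317 CPM against 2165 to 2782 CPM (1.44 ± 0.05, SE, log2, edgeR adjusted p = 6.15e-10). Ctnna3, with 4, stood at 1862 to 1895 CPM in inhibitory and 1705 to 2014 CPM in excitatory nuclei. Agbl1, with 4, stood at 7.51 to 8.73 CPM against 7.13 to 9.96 CPM. Fhit, with 4, stood at 121, 117, 272 and 272 CPM in inhibitory and 124, 119, 265 and 253 CPM in excitatory nuclei, so both classes were higher in the DBA libraries. The values of the classes overlapped at these 3 genes (edgeR adjusted p = 0.375, 0.708 and 0.755), and Fhit also held 10 excitatory-specific peaks. Ctnna2, with 3 members, was higher by 0.35 ± 0.04 (SE, log2, edgeR adjusted p = 8.8e-06).

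Members called higher in an inhibitory type were then set beside RNA in the same type. Genes with a member called higher in Inh-Tshz1 were tested in 252 cases, and the RNA of 142 (56.3%) was higher in that type and of 42 (16.7%) lower, beside 22.6% and 19.7% of all 13844 genes tested. The RNA was higher at 22 of 40 such genes in Inh-Lamp5 (55.0%, all genes 13%), at 6 of 11 in Inh-Lypd6b (54.5%, all genes 12.5%), at 63 of 147 in Inh-Drd2 (42.9%, all genes 18.7%) and at 17 of 40 in Inh-Htr3a (42.5%, all genes 12.5%). It was higher at 25 of 66 in Inh-Sst (37.9%, all genes 16.6%), at 26 of 96 in Inh-Nxph2 (27.1%, all genes 12.6%) and at 42 of 165 in Inh-Zfhx3 (25.5%, all genes 14.3%). The RNA was lower at 24 of these genes in Inh-Drd2 (all genes 15.4%), at 20 in Inh-Zfhx3 (8.05%), at 14 in Inh-Sst (13.7%), at 10 in Inh-Nxph2 (7.82%), at 7 in Inh-Htr3a (11.1%), at 5 in Inh-Lamp5 (12.3%) and at 1 in Inh-Lypd6b (9.69%). A gene can have members in several types, so these counts share genes. Of the 338 tested genes with any member, a larger share was called higher in each type than of all genes. It was 47.9% in Inh-Tshz1, 22.8% in Inh-Lamp5, 21.0% in Inh-Lypd6b and 34.0% in Inh-Drd2. In Inh-Htr3a it was 24.6%, in Inh-Sst 25.7%, in Inh-Nxph2 19.8% and in Inh-Zfhx3 25.1%. A larger share was also called lower in each type than of all genes. It was 32.2% in Inh-Lamp5, 26.9% in Inh-Sst, 26.3% in Inh-Htr3a and 22.2% in Inh-Lypd6b, above the shares called higher there. In Inh-Tshz1 23.1% were lower, in Inh-Drd2 21.6%, in Inh-Nxph2 16.3% and in Inh-Zfhx3 14.8%. The gap between the shares called higher and those of the type-called members was not tested. In Inh-Zfhx3 these were nearly equal, at 25.1% and 25.5%.

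In Inh-Tshz1 the largest RNA differences beside such members were at Npffr2, a neuropeptide FF receptor, and Chst9, a sulfotransferase. Chst9 stood at 711, 724, 844 and 713 CPM, against 8.89 to 15.6 CPM for the mean of the other types, a difference of 6.25 ± 0.14 (SE, log2, edgeR adjusted p = 4.07e-21). Npffr2 stood at 64.0 and 64.8 CPM in BL6 and 28.6 CPM in both DBA libraries, against 0.370 to 1.35 CPM in the others (6.26 ± 0.21, SE, log2, edgeR adjusted p = 3.94e-26). At both genes no library overlapped with the other types. In Inh-Htr3a Adarb2, with 3 such members, reached 10024 to 12821 CPM against 1502 to 1774 CPM, and Frem1, an extracellular matrix protein, 93.4 to 184 CPM against 11.7 to 24.7 CPM. In Inh-Lamp5 Frem1 stood at 57.5 to 138 CPM against 17.4 to 31.7 CPM, and Dlx1as, antisense to Dlx1, at 247 to 408 CPM against 67.6 to 83.8 CPM.

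In Inh-Drd2 the formin Inf2 stood at 127, 258, 145 and 104 CPM against 11.9 to 16.3 CPM (4.79 ± 0.16, SE, log2, edgeR adjusted p = 6.83e-25). Drd3, a dopamine receptor, stood at 8.39, 74.2, 108 and 0 CPM against 7.98 to 11.0 CPM; it was called higher, but 1 library was at 0 in a type with as few as 12 RNA nuclei a library. In Inh-Sst Rnf144b, an E3 ubiquitin ligase, stood at 120 ± 12.6 CPM against 25.9 ± 1.80 CPM (SD, n = 4), and Crhr2, a receptor for urocortin peptides, at 9.94 to 28.1 CPM against 3.61 to 4.19 CPM. Crhr2 was also higher in Inh-Nxph2, at 7.72 to 13.1 CPM. Elavl2 in Inh-Lypd6b stood at 575 to 714 CPM against 251 to 282 CPM, and Spag16, a sperm-flagellum gene, at 6.68, 0, 15.6 and 28.9 CPM against 4.92 to 7.63 CPM, a call that was lost without DBA library 2 (adjusted p = 0.113 with edgeR), without DBA library 3 (adjusted p = 0.297) or without the block (adjusted p = 0.0919). In Inh-Nxph2 Dock2, an activator of Rac, stood at 80.0 to 111 CPM against 29.3 to 53.4 CPM. In Inh-Zfhx3 Zfp831, a zinc finger gene, stood at 48.9 to 56.5 CPM against 23.5 to 33.6 CPM. There Foxp2 was called higher against the mean log level of the other types (1.98 ± 0.25, SE, log2, edgeR adjusted p = 2.09e-06), while its mean of 298 CPM lay below their mean of 329 CPM, so the 2 averages differ in sign.

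The rule summed both strains without comparing them, but a peak high in 1 strain could pass it through that strain alone. The BL6 mean was 0.953 CPM at the member near Tnfsf18, and the DBA mean was 0.792 CPM at that near Halr1. Both lie under the 2 CPM of the rule, so the strain calls on accessibility below describe the members and are no independent support. All 1228 members passed the filter in the inhibitory sums, and 61 were higher in DBA (4.97%) and 16 lower (1.30%), beside 1.88% and 1.58% of all 260830 peaks tested. The median difference of the members was 0.08 on the log2 scale, and 64.0% lay above 0, against 50.3% of all peaks. This balance rested on single libraries. Without DBA library 2 the counts were 33 higher and 73 lower, and without DBA library 3 they were 189 and 10. Without BL6 library 2 they were 32 and 7, and without BL6 library 3 they were 20 and 9. With DESeq2 they were 14 and 5. The members held 0.559% and 0.555% of the inhibitory counts in BL6 libraries 2 and 3 and 0.627% and 0.522% in DBA libraries 2 and 3, so the DBA libraries lay on either side of both BL6 libraries. Inh-Tshz1 gave 29.3% and 31.4% of the inhibitory counts in BL6 and 31.4% and 23.3% in DBA. Inh-Lamp5 gave 4.74% and 4.50% against 2.39% and 2.22%, and Inh-Htr3a 4.10% and 4.43% against 2.59% and 3.68%. Inh-Zfhx3 gave 22.2% and 16.3% against 25.8% and 23.1%. The members near Plppr4 and Nyap2, named for Inh-Lamp5, were called lower in DBA in the sums (-0.66 and -0.69, log2, edgeR adjusted p = 0.0418 and 0.0151). Within Inh-Lamp5 no member was called. The part of this mixture in the calls on the sums was not tested.

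In such sums fewer nuclei of a type and less signal per nucleus cannot be told apart. Within Inh-Tshz1, where the mixture of the 8 types does not enter, 1093 members were tested, of which 60 were higher in DBA (5.49%) and 6 lower (0.549%), beside 1.46% and 1.44% of all peaks. The counts were 19 and 5 without DBA library 2, 85 and 5 without DBA library 3, 28 and 3 without BL6 library 2, 28 and 2 without BL6 library 3, and 11 and 2 with DESeq2. Within Inh-Zfhx3 17 of 903 were higher (all peaks 1.21%) and 6 lower (1%), and without DBA library 2 15 were higher and 17 lower. In Inh-Nxph2 2 of 890 were higher (all peaks 0.77%) and 3 lower (0.747%), in Inh-Drd2 1 of 340 each way (all peaks 0.229% and 0.217%), and in Inh-Sst 1 of 282 was lower (all peaks 0.377%) and 0 were higher (all peaks 0.407%). In Inh-Sst 45 of these members had an unadjusted p under 0.05, and DESeq2 called none. edgeR called no member in Inh-Htr3a (all peaks 0.21% higher and 0.167% lower), Inh-Lamp5 (0.221% and 0.2%) or Inh-Lypd6b (0.151% and 0.139%). In these 3 types 65, 78 and 8 members were tested, 3, 5 and 0 had an unadjusted p under 0.05 and DESeq2 called none. Differences between types in these counts were not tested.

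The members with the largest strain differences kept the direction of their difference under each alternative that was run. The alternatives used the same libraries that named these members, so they are no independent support. A peak 24.2 kb from Defb33 (chr8:20921889-20922644) stood at 0 and 0.110 CPM in BL6 and at 7.25 and 4.51 CPM in DBA inhibitory nuclei. The fit gave 6.49 ± 0.39 (SE, log2, edgeR adjusted p = 9.06e-20); since 1 BL6 library held no count, this value depends on the prior count of the fit. The peak lies beside the beta-defensin genes, a family of near-identical copies in which reads can be split, so it is reported as uncertain. A peak 84.1 kb from Slc30a8 (chr15:52419916-52420509), a zinc transporter gene, stood at 0.469 and 0.822 CPM against 6.11 and 3.53 CPM (2.90 ± 0.26, SE, log2, edgeR adjusted p = 4.38e-13). One 6.14 kb from Tnfsf18 (chr1:161487974-161488513), a cytokine gene, stood at 1.06 and 0.850 CPM against 6.81 and 4.69 CPM. The strains did not overlap at these peaks, and DBA library 2 was the highest at each. Over all 1228 members the strains did not overlap at 254 with DBA higher and at 170 with DBA lower. The lack of overlap at the named peaks is therefore a description only.

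A peak inside Trpm1 (chr7:64254930-64255655), a cation channel, stood at 0.821 and 0.548 CPM in BL6 and 4.18 and 2.96 CPM in DBA (2.48 ± 0.25, SE, log2, edgeR adjusted p = 2.26e-12), and it was also higher in 2 single types. The RNA of Trpm1 in inhibitory nuclei differed by 0.99 (log2) without passing the test (edgeR adjusted p = 0.113). One 1322 kb from Stim2 (chr5:55443520-55444015) stood at 1.76 and 1.18 CPM against 5.16 and 4.72 CPM. It was called higher in 3 types.

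Lower in DBA was a peak 3.44 kb from Halr1 (chr6:52117128-52117746), a noncoding RNA beside the Hoxa genes, at 3.75 and 3.89 CPM in BL6 against 0.950 and 0.634 CPM in DBA (-2.20 ± 0.23, SE, log2, edgeR adjusted p = 8.04e-12). A peak 4.05 kb from Nr1i3 (chr1:171209258-171209887), a nuclear receptor gene, stood at 7.94 and 8.20 CPM against 3.83 and 3.28 CPM (-1.14 ± 0.15, SE, log2, edgeR adjusted p = 1.95e-08). The peaks nearest to Dcc, a netrin receptor, to Xkr4 (chr1:3094695-3095271) and to Slc30a4 (chr2:122714993-122715645) fell by 1.16, 1.08 and 1.01 on the log2 scale. The strains did not overlap at these 5 peaks, which were named for their large differences, and the SD within a strain was at most 0.389 CPM.

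**Figure D5:**
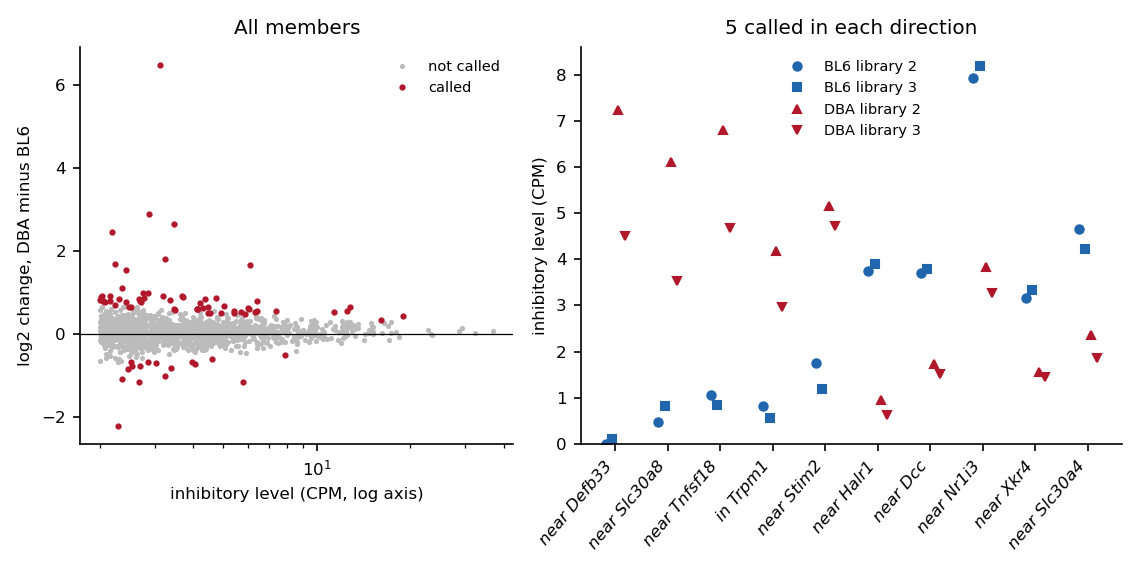
Left, the log2 difference DBA minus BL6 of each member in inhibitory nuclei (vertical axis) against its inhibitory level in CPM (log axis), with the 77 called members in red. Right, the inhibitory level in CPM of the 5 members named in each direction for their large differences, 1 point per ATAC library. The strains do not overlap at any of the 10, and the difference beside Defb33 stands at 6.49.

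The RNA of genes with a member was tested between strains as well. Of 396 genes counted in both strains and tested in the inhibitory sums, 16 were higher in DBA (4.04%) and 20 lower (5.05%), beside 4.7% and 7.17% of all 18426 genes tested. Of the 77 members called between strains, 29 formed a pair with a tested gene, and the RNA of 4 of these differed. At Btbd9, Ptdss1 and Synpo2 the member was higher in DBA, by 1.68, 0.83 and 0.86, and the RNA was lower, by -0.49, -1.04 and -0.64 (log2, edgeR adjusted p = 0.00164, 5.23e-05 and 0.0392). At Gm6040, beside the beta-defensin genes, both were higher (RNA 2.73, log2, edgeR adjusted p = 0.00114). Meis2 and Erbb4 had members higher in DBA, but their RNA differed by 0.04 and -0.04, without passing the test (edgeR adjusted p = 0.859 and 0.898).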

How the data were processed

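Nuclear RNA and ATAC libraries of amygdala, 8 in all (2 per strain and assay), were analysed; 16 methylation libraries were not analysed here. The authors deposited tables of whole-number counts summed per cell type and library, aligned to mm10 with Cell Ranger 6.0.2 and Cell Ranger ATAC 2.0.0 and clustered with Seurat 4.0.5, per the submitters' processing notes. Whether an ATAC count is a fragment or an insertion, and how cell types, doublets and peaks were called, is not given in the sources used here. ATAC libraries held 66535381 to 86927891 counts from 3694 to 6943 nuclei, and RNA libraries 30693629 to 66304405 counts from 2867 to 8079 nuclei.

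Each table column is 1 cell type in 1 library, named by type, strain and library number. The numbers differ from those in the sample titles, so columns were tied to a strain only; each type has at most 2 columns per strain, as many as the strain has samples. CPM values are counts per 1000000 of the class, or of the type, in a library. Differences were tested with edgeR 4.0.16 in R 4.3.3 (robust quasi-likelihood, TMM scaling, filterByExpr with a minimum count of 10, Benjamini-Hochberg adjustment over all peaks or genes tested, called at an adjusted p under 0.05). Strain was tested as DBA minus BL6 on the inhibitory sums and within each of the 8 types, all of whose columns held at least 10 nuclei and 100000 ATAC counts. A type was tested against the mean of the other types, and inhibitory against excitatory RNA, with the library as a block, since each library holds every type. RNA strain tests kept genes with at least 10 counts in each strain. Genes were placed with RefSeq on GRCm38.p6, to which 25840 of 34039 RNA rows matched, 99 of them by synonym. The fits were tested on simulated counts with 1 common dispersion per comparison and changes planted only at means of 10 or more counts. They hold no library effect, while the strain calls varied with the library left out, so their false-call shares need not hold for the data. For strain in the inhibitory sums, over 260830 peaks, 56% of 2-fold and 91% of 4-fold changes were recovered, and 3.29% of the calls were false. For Inh-Tshz1 against other types, over 91370 peaks, these shares were 90%, 95% and 5.61%, and for Inh-Lypd6b against other types, over the same peaks, 30%, 73% and 9.65%. For RNA of Inh-Lypd6b against other types, over 13844 genes, they were 87%, 97% and 6.60%; in the other 4 comparisons simulated under 5% of calls were false.

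The members, gene lists and tests were chosen with earlier results of these data known. Peaks named were the 10 of highest inhibitory level, those within 2 kb of an end of 12 GABAergic genes, 2 per type with the smallest p, 5 per direction of strain difference, and 3 on either side of the threshold. Genes named were the 10 with most members, up to 4 per list and 2 per type, and provisional symbols were passed over; 1 peak that the rule named is not reported here. Dlx1 and the other start peaks outside the rule, and the RNA pairs with strain-called members, were added after their values were seen. Alternatives were RLE size factors, total counts, no filter, the library number as a block or no block, each library left out, DESeq2 1.42.0, other thresholds and other gene windows.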

Additional observations from a re-analysis of the deposited data

Results flagged for a closer look

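Signal in members was also found in data outside the comparisons. The nuclei the authors named Neuronal-Aldoa-Cst3, which belong to none of the 3 classes, held 265 counts in members, 0.392% of their ATAC counts. That share lay within the range of the inhibitory types and above each excitatory type, but it came from 9 nuclei in 3 libraries, with 0.416%, 0.221% and 0.496% in BL6 library 3 and DBA libraries 2 and 3.

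On chromosome X, which the rule left out, 26 of 4946 peaks (0.526%) met the same thresholds, against 0.461% of peaks on chromosomes 1 to 19. This difference was not tested.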

How the results depend on the processing

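The number of members followed the thresholds: 2696 at 3-fold, 102 at 8-fold, 1899 at 1 CPM and 517 at 4 CPM, and 1077 to 1374 with a library left out. The equal weighting of types and the sum without Inh-Tshz1 were chosen after seeing the data. Of members higher in DBA, 20 to 189 were called with a library left out, 14 with DESeq2, 137 at the 3-fold and 6 at the 8-fold threshold, where the 61 of the report stood. Of members lower in DBA, 7 to 73 were called with a library left out, 5 with DESeq2, 43 at 3-fold and 0 at 8-fold (edgeR, where 18 of these 102 members had an unadjusted p under 0.05, and DESeq2 called 0). Summed over the 8 types, 80 strain calls were higher and 17 lower, against 34 to 101 and 5 to 22 with a library left out and 14 and 2 with DESeq2. Genes with a member and higher RNA in inhibitory nuclei numbered 178, with no replicate block 114, with peaks at gene ends alone 12, and at the 3-fold and 8-fold thresholds 358 and 18. Those lower numbered 71, 36, 5, 181 and 3 in the same order.

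Deviations from the strain means correlated at 0.011 over 116147 peaks between ATAC libraries of the same number, and at -0.011 between crossed numbers. With 2 libraries per strain these values mirror each other, so they cannot exclude a batch shared by libraries of the same number. The replicate block gave 62 members higher and 18 lower, and 86 and 22 over the types. Members called higher in a type, summed over types, stayed between 2507 and 3033 (2732 in the report) and those in Inh-Tshz1 between 837 and 1012. Of 61 named results 59 kept direction and call under the alternatives run for them; Pbx3 and Spag16, given in the report, did not, and none reversed. Low depth limits the rarest types most, as in Inh-Lypd6b, where 8 members could be tested between strains, and the non-neuronal class limits membership. Causes of these shifts were not tested.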
